A study of Mus musculus with 15 samples.

Results

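The interferon response genes described here were 41 genes taken by symbol from a count table of 52327 mouse gene entries. They encode parts of the signalling chain that interferons switch on, together with the sensors, antiviral effectors, GTPases and antigen-processing subunits that it induces. All 41 had an entry, and the 36 with 10 or more counts in at least 3 of 15 libraries were tested along with the other genes that passed the same rule, 13199 in all. The remaining 5 were treated as not expressed. The libraries came from a mouse line named HoxB, labelled as blood, in 5 groups of 3. RUNX1-ETO_FIRST carried RUNX1-ETO, a leukaemia fusion of the transcription factor RUNX1 with the corepressor ETO, and then CSF3R-T618I, an activated form of the granulocyte colony-stimulating factor receptor. CSF3R_FIRST carried CSF3R-T618I and then RUNX1-ETO. RUNX1-ETO_ONLY and CSF3R_ONLY carried the named allele alone, and EMPTY carried control vectors. The title of the study sets the question as whether the order of acquisition of both alleles matters. The labels do not give the promoter driving each allele, the selection, whether a line was 1 clone, or whether the replicates were separate cultures, so p-values measure a spread between libraries that may be technical.

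Type I interferons bind a receptor on the cell surface and activate the kinases JAK1 and TYK2, which phosphorylate STAT proteins. Among these, STAT2 takes part with IRF9 in a complex that binds the interferon-stimulated response element, ISRE, while interferon gamma acts mainly through STAT dimers at the gamma-activated site, GAS. In blood progenitors the same genes are expressed at a low level without infection, and interferon is known to drive stem cells out of quiescence.

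Total counts were 17007437 to 18178292 per library. The labels were checked on the fusion: mouse Runx1t1, the ETO gene, had 494 CPM (a gene's counts relative to the TMM-scaled total of the library) in RUNX1-ETO_FIRST, 712 in CSF3R_FIRST and 448 in RUNX1-ETO_ONLY, and 0 counts in all libraries of CSF3R_ONLY and EMPTY. Csf3r did not follow the receptor labels, with 401 to 441 CPM in RUNX1-ETO_FIRST, 366 to 430.2 in CSF3R_FIRST, 507 to 536 in RUNX1-ETO_ONLY and a higher 618 to 627 in CSF3R_ONLY, against 373 to 465 in EMPTY. Whether the introduced receptor is counted under that symbol was not given in the sources used here, so the CSF3R-T618I labels were not checked. EMPTY replicate 3 stood apart from its group, with a chi-square per gene of 69.5 and 75.0 against EMPTY replicates 1 and 2, where other pairs of replicates gave 2.45 to 20.5. It and 3 others (RUNX1-ETO_ONLY replicate 3, CSF3R_FIRST replicate 3, RUNX1-ETO_FIRST replicate 1) were low in long transcripts, their deviations from the group mean correlating with log2 transcript length at -0.47 to -0.26 across genes, against -0.055 to 0.36 in the other 11; calls of members lost without these 4 libraries are named beside the result. All 8 blood-cell markers were detected in every group. Of the macrophage list, summed CPM was 174 to 182 in RUNX1-ETO_FIRST, 198 to 209 in CSF3R_FIRST, 51.1 to 61.1 in RUNX1-ETO_ONLY, and in CSF3R_ONLY 67.7 to 74.8, against 15.3 to 16.8 in EMPTY, from 1 to 3 of 8 markers and nearly all of it from Adgre1 (mean 176, 196, 54.6 and 71.4 CPM, against 15.96 in EMPTY), with C1qa, Marco and Cd5l at 0 throughout. The plasmacytoid dendritic cell list, a cell type that makes interferon, summed to 109 to 135, 98.5 to 112, 128 to 147 and 116 to 121 CPM in those groups, against 139.7 to 164 in EMPTY, from 2 or 3 of 8 markers, with Ly6d and Klk1 at 0 throughout. Most of it came from Runx2 (group means 68.3 to 113 CPM) and Tcf4 (29.7 to 39.7), while Siglech had 3 counts in EMPTY and 0 elsewhere. The stromal and endothelial list summed to 784 to 805, 859 to 881, 611 to 659 and 359 to 369.8 CPM, against 291 to 323 in EMPTY, from 2 to 4 of 9 markers, with Col1a2, Col3a1 and Dcn at 0. Nearly all of that sum came from Pecam1 (group means 281 to 798 CPM) and Pdgfrb (26.3 to 89.9). T and NK cell markers summed to at most 1.14 CPM and B-cell markers to at most 3.72. The part of these cell types in the results was not tested, and in bulk RNA fewer cells of a type and less RNA per cell cannot be told apart.

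Promoters are shown because the members were grouped by a shared response, and the ISRE is the sequence through which that response is known to act. RefSeq windows of 300 bases (250 before the transcription start to 50 after it, build GRCm38.p6) existed for 31 of the 41 members, in 37 windows. The ISRE was searched on both strands as GAAA, any 2 bases and GAAA again, overlaps allowed, and occurred in 17 of these members (54.8%), against 3.99% of all 27025 genes with a window. The GAS letters TTCNNNGAA, also on both strands, occurred in 11 members (35.5%), against 9.55% of all genes. Of the members that were higher in RUNX1-ETO_FIRST than in CSF3R_FIRST, 5 of 10 with a window held an ISRE match, and of the other members 12 of 21 did. The last 100 bases before the start are given below for 6 interferon-inducible GTPases and for Oas3, and bases 150 to 50 before it for Rsad2, 5′ to 3′ on the gene's strand, with ISRE matches in capitals. They lie at chr3:142620563-142620662, plus strand (Gbp2), chr3:142559944-142560043, plus strand (Gbp3), chr3:142530236-142530335, plus strand (Gbp7), chr11:48871421-48871520, minus strand (Irgm1), chr11:58214877-58214976, plus strand (Irgm2), chr11:58199456-58199555, plus strand (Igtp), chr5:120777660-120777759, minus strand (Oas3) and chr12:26456503-26456602, minus strand (Rsad2).
Gbp2: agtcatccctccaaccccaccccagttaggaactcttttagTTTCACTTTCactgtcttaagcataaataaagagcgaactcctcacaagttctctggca
Gbp3: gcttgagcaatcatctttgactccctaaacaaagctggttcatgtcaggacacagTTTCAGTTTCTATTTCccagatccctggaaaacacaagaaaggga
Gbp7: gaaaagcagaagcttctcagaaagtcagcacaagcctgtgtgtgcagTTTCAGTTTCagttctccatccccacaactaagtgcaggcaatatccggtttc
Irgm1: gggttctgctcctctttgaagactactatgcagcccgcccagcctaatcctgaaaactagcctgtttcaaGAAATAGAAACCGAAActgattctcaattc
Irgm2: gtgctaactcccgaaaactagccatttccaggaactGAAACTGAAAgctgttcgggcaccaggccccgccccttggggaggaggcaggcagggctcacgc
Igtp: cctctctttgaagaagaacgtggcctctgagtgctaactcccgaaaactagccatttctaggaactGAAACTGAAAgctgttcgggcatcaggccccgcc
Oas3: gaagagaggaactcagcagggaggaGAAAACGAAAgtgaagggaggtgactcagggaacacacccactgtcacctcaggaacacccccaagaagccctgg
Rsad2: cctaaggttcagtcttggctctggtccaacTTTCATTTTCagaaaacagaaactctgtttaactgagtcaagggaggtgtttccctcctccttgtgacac
Gbp3 and Irgm1 held overlapping pairs of matches and the others 1 each. The Igtp and Irgm2 windows shared an identical run of 61 bases, whose first base lies 11 bases before the Igtp start and 41 before the Irgm2 start.

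Set against EMPTY, every allele combination moved members in both directions, and RUNX1-ETO_FIRST moved the most upwards. In RUNX1-ETO_FIRST 22 of the 36 tested members rose and 5 fell against EMPTY, where 43.8% of all tested genes were called (23.7% risen, 20.1% fallen). CSF3R_FIRST had 14 risen and 9 fallen, with 53.3% of all genes called (26.7% risen and 26.5% fallen), so that the 63.9% of tested members called there lay near the background. RUNX1-ETO_ONLY had 13 risen and 8 fallen against EMPTY (38.9% of all genes called, 20.8% risen and 18.1% fallen), and CSF3R_ONLY 17 risen and 4 fallen (32.9% called, 19.9% risen and 13% fallen). The median log2 difference of the members from EMPTY was 0.84 in RUNX1-ETO_FIRST, 0.19 in CSF3R_FIRST, 0.086 in RUNX1-ETO_ONLY and 0.29 in CSF3R_ONLY, with the median of all genes between -0.048 and 0.011. Each compares 3 libraries with the same 3 EMPTY libraries. A call here is an adjusted p under 0.05 over all tested genes in edgeR's quasi-likelihood test, and ± after a log2 difference is its standard error.

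**Figure D1:**
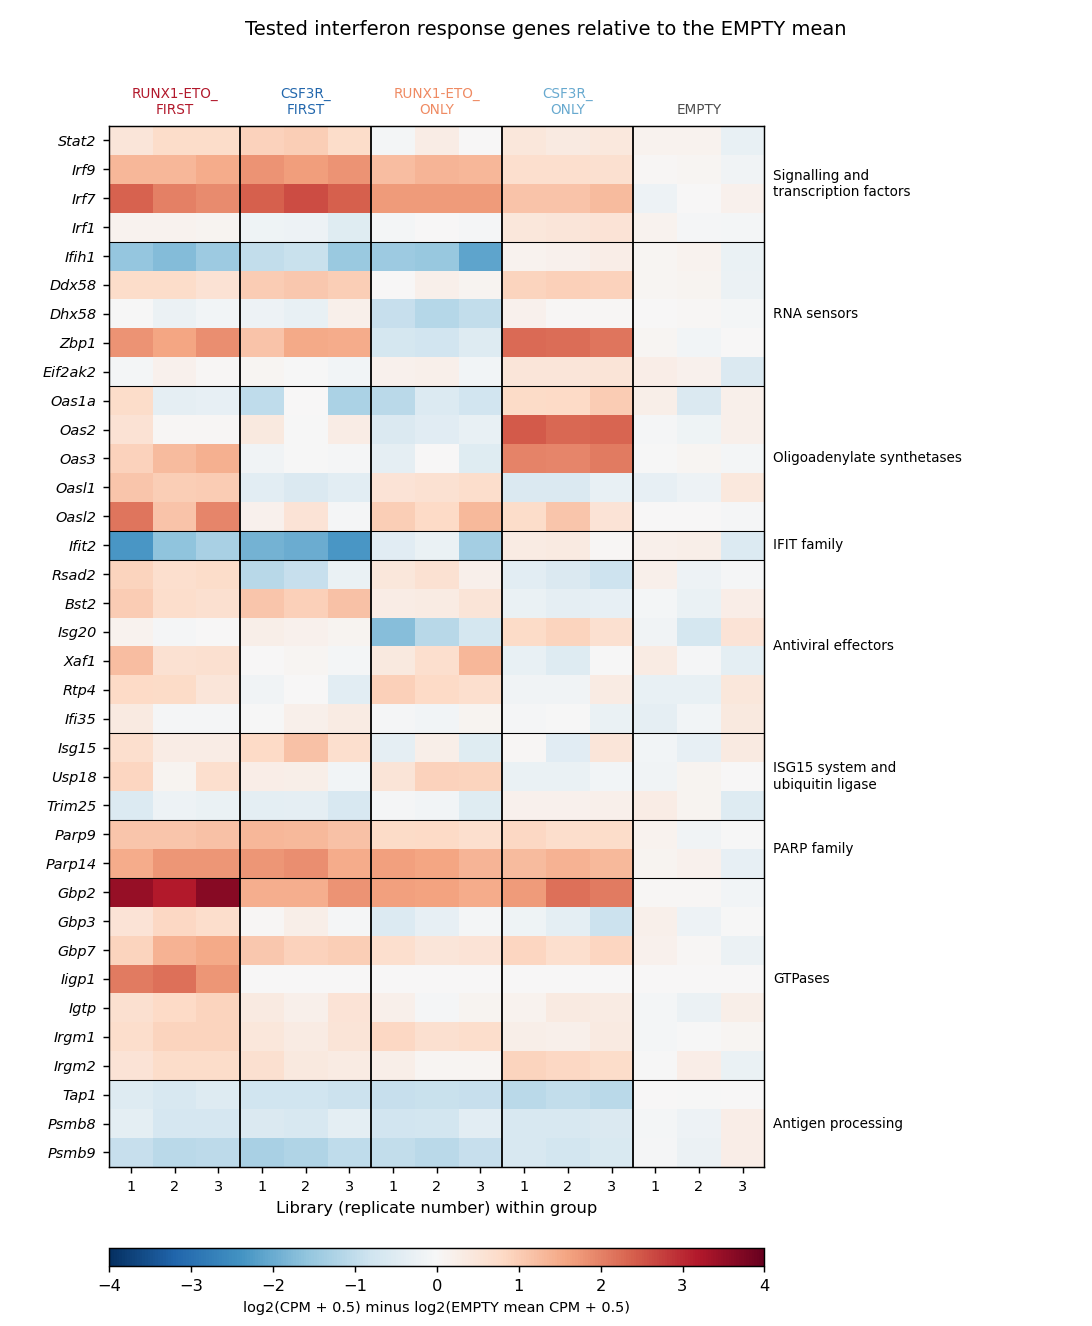
Log2(CPM + 0.5) of the 36 tested members in each of the 15 libraries, minus the log2 of the EMPTY mean plus the same 0.5. Rows are members by role and columns are libraries by group. The antigen-processing rows lie below 0 in all 12 libraries that carry an allele, while Irf9, Irf7, Parp9, Parp14, Gbp2, Gbp7 and Irgm1 lie above 0 there.

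By profile, 7 members rose in all 4 allele groups against EMPTY (Irf9, Irf7, Parp9, Parp14, Gbp2, Gbp7 and Irgm1) and 3 fell in all 4 (Tap1, Psmb8 and Psmb9), where 7.43% of all tested genes rose and 3.75% fell in all 4. Another 6 rose in at least 1 group and fell in at least 1 other (Irf1, Zbp1, Oas2, Oasl1, Rsad2 and Isg20), as did 8.86% of all genes, and 2, Oas1a and Ifi35, were called in none. Because all 4 comparisons share the EMPTY libraries, a shift in EMPTY alone would enter each of them. Per kilobase of exon, the mean level over all libraries was highest for Bst2 at 38.4 CPM, Psmb8 at 26.8 and Tap1 at 13.6, and lowest among tested members for Iigp1 at 0.053 and Usp18 at 0.118. The 2 comparisons in which a second allele was added are given with the roles: adding CSF3R-T618I to RUNX1-ETO (RUNX1-ETO_FIRST against RUNX1-ETO_ONLY) gave 18 members risen and 1 fallen, with 26.2% of all genes called (15.9% risen, 10.3% fallen), and adding RUNX1-ETO to CSF3R-T618I (CSF3R_FIRST against CSF3R_ONLY) gave 9 risen and 11 fallen, with 44.7% called (22.2% risen, 22.5% fallen).

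Between the orders of acquisition, 12 members were higher and 2 lower in RUNX1-ETO_FIRST than in CSF3R_FIRST. Of all tested genes 7.18% were called higher and 11.1% lower there, 18.2% in all, and 38.9% of the tested members were called. The risen members were 3 of 6 GTPases (Gbp2, Gbp3, Irgm1) and Iigp1, a GTPase that passed the filter through RUNX1-ETO_FIRST alone and so had to differ, 3 of 5 oligoadenylate synthetases (Oas3, Oasl1, Oasl2), 3 of 6 tested antiviral effectors (Rsad2, Xaf1, Rtp4), the transcription factor Irf1 and the peptide transporter Tap1. The fallen were Irf9 and the RNA sensor Ddx58. The median member difference was 0.24, against 5.3e-04 over all genes. Without the 4 libraries low in long transcripts 10 members rose and 6 fell, and 4391 genes were called in place of 2407; Gbp3, Xaf1, Rtp4 and Iigp1 were then no longer called, Gbp7 and Igtp were called higher in addition, and Ifih1, Irf7, Stat2 and Bst2 lower. With library sizes in place of TMM 14 members rose and 1 fell, and the risen share of all calls was 61.9% instead of 39.4%.

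**Figure D2:**
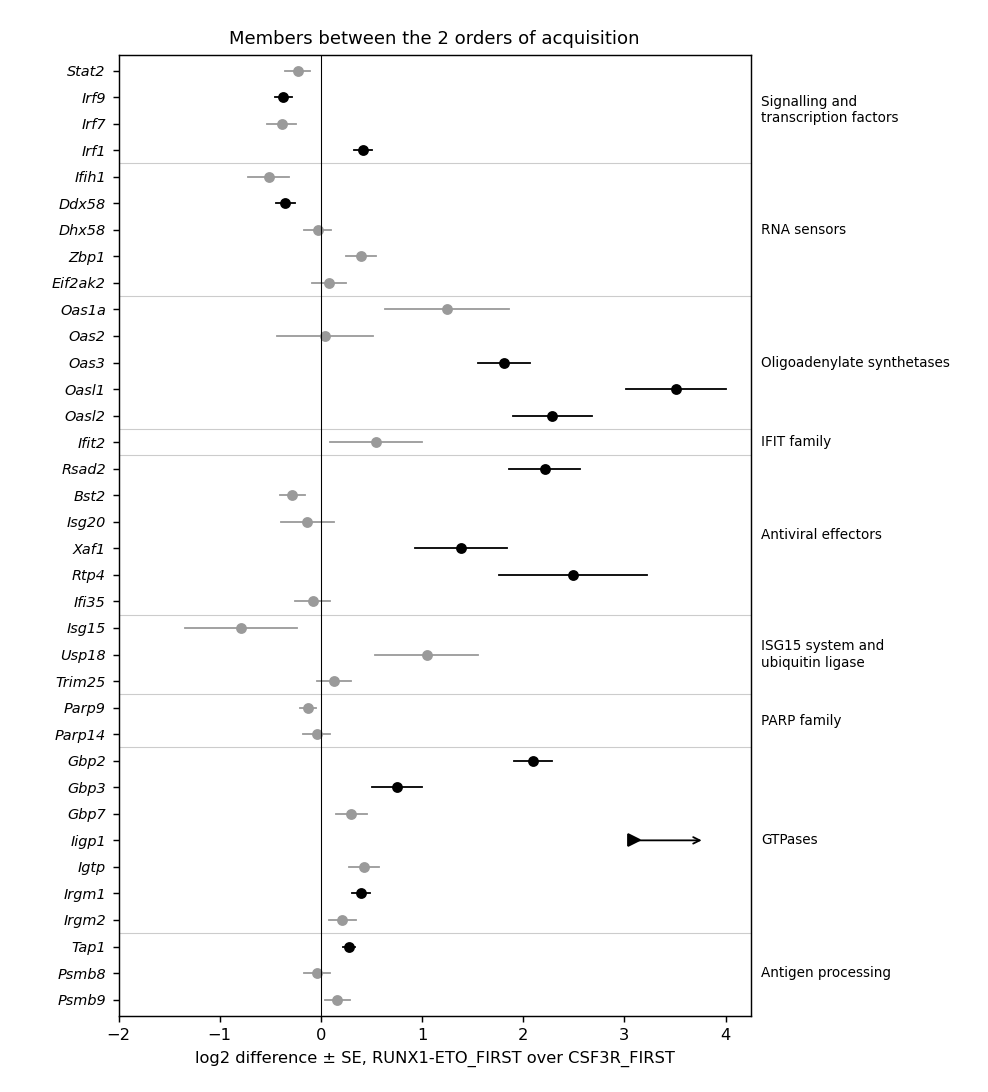
Log2 difference ± SE between RUNX1-ETO_FIRST and CSF3R_FIRST for the 36 tested members by role, with called members in black and the others in grey. Iigp1 has no counts in CSF3R_FIRST and is drawn as a lower bound with an arrow. The GTPases lie at or right of 0, and Irf9 and Ddx58 are the called members left of it.

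All calls of interferon-inducible GTPases against EMPTY were rises. Gbp2, a guanylate-binding protein that attacks the membranes around intracellular pathogens, was at 9.03, 7.31 and 10.1 CPM in the RUNX1-ETO_FIRST libraries, 1.86, 1.83 and 2.49 in CSF3R_FIRST, 2.19, 2.11 and 1.89 in RUNX1-ETO_ONLY and 2.28, 3.42 and 3.12 in CSF3R_ONLY, against 0.386, 0.389 and 0.2997 in EMPTY. Every RUNX1-ETO_FIRST library lay above every other library, and every EMPTY library below. It rose 24.1-fold in RUNX1-ETO_FIRST (log2 4.59 ± 0.25, adjusted p = 3.42e-10), 5.64-fold in CSF3R_FIRST (log2 2.50 ± 0.29, adjusted p = 2.04e-06), 5.65-fold in RUNX1-ETO_ONLY (log2 2.50 ± 0.28, adjusted p = 2.94e-06) and 8.04-fold in CSF3R_ONLY (log2 3.01 ± 0.27, adjusted p = 3.14e-07) over EMPTY. Against CSF3R_FIRST it was 4.27-fold higher in RUNX1-ETO_FIRST (log2 2.09 ± 0.19, adjusted p = 1.81e-06), and against RUNX1-ETO_ONLY 4.26-fold (log2 2.09 ± 0.19, adjusted p = 4.41e-07). CSF3R_FIRST and CSF3R_ONLY differed by log2 -0.51 ± 0.20, which was not called (adjusted p = 0.0539).

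Iigp1, an immunity-related GTPase of mice that acts on parasite vacuoles, was read in RUNX1-ETO_FIRST alone, with 29, 33 and 21 counts (1.63, 1.81 and 1.18 CPM) and 0 counts in the other 12 libraries. Set against a floor of 3 counts per library, it was at least 8.57-fold higher than in CSF3R_FIRST, at least 9.96-fold higher than in RUNX1-ETO_ONLY and at least 9.04-fold higher than in EMPTY. It passed the filter through this group only, so it had to differ, and without any 1 of the 3 RUNX1-ETO_FIRST libraries it fell below the filter and had no test. Irgm1, a regulator of that GTPase family, was at 26.8, 30.6 and 30.7 CPM in the RUNX1-ETO_FIRST libraries, 22.7, 20.7 and 23.4 in CSF3R_FIRST, 29.4, 25.7 and 27.2 in RUNX1-ETO_ONLY and 19.5, 19.1 and 21.1 in CSF3R_ONLY, against 15.4, 16.3 and 17.4 in EMPTY. The RUNX1-ETO_FIRST libraries lay above those of CSF3R_FIRST and all allele groups above EMPTY. It rose in all 4 groups against EMPTY, by log2 0.84 in RUNX1-ETO_FIRST to 0.28 in CSF3R_ONLY, and was 1.32-fold higher in RUNX1-ETO_FIRST than in CSF3R_FIRST (log2 0.40 ± 0.09, adjusted p = 0.00558). Gbp3, another guanylate-binding protein, was at 2.69, 3.35 and 3.04 CPM in the RUNX1-ETO_FIRST libraries, 1.75, 2.07 and 1.58 in CSF3R_FIRST, 0.968, 1.23 and 1.57 in RUNX1-ETO_ONLY and 1.401, 1.16 and 0.692 in CSF3R_ONLY, against 1.98, 1.39 and 1.62 in EMPTY. RUNX1-ETO_FIRST lay above the other groups without overlap, at log2 0.75 ± 0.24 over CSF3R_FIRST (adjusted p = 0.0428), 1.27 ± 0.25 over RUNX1-ETO_ONLY (adjusted p = 0.00128) and 0.86 ± 0.24 over EMPTY (adjusted p = 0.00931).

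Gbp7, which takes part in oxidative killing of microbes, had 18.5 ± 4.17 CPM in RUNX1-ETO_FIRST, 15.01 ± 0.857 in CSF3R_FIRST, 10.98 ± 0.802 in RUNX1-ETO_ONLY and 13.03 ± 1.105 in CSF3R_ONLY, against 7.27 ± 1.06 in EMPTY (mean ± SD, n = 3 each), and rose in all 4 against EMPTY. Igtp had 8.67 ± 0.798 CPM in RUNX1-ETO_FIRST, 6.46 ± 0.815 in CSF3R_FIRST, 5.24 ± 0.525 in RUNX1-ETO_ONLY and 5.99 ± 0.552 in CSF3R_ONLY, against 4.87 ± 0.907 in EMPTY, and Irgm2 had 12.7 ± 0.9795 CPM in RUNX1-ETO_FIRST, 11.01 ± 1.43 in CSF3R_FIRST, 8.695 ± 0.547 in RUNX1-ETO_ONLY and 14.3 ± 0.751 in CSF3R_ONLY, against 7.86 ± 1.52 in EMPTY. Both belong to the immunity-related GTPases and rose in RUNX1-ETO_FIRST and CSF3R_FIRST against EMPTY, as did Irgm2 in CSF3R_ONLY. Leaving aside Iigp1, 6 of 6 GTPases rose in RUNX1-ETO_FIRST against EMPTY, 5 in CSF3R_FIRST, 3 in RUNX1-ETO_ONLY and 4 in CSF3R_ONLY, where 23.7%, 26.7%, 20.8% and 19.9% of all tested genes rose, and 5 of 6 rose in RUNX1-ETO_FIRST against RUNX1-ETO_ONLY (15.9% of all genes). Igtp and Irgm2 overlap by 162 bases on the same strand, Gbp7 overlaps Gm43802 by 637, and the guanylate-binding proteins are close paralogs, so reads shared between them could have been split. Several of these calls rested on single libraries. Gbp3 was not called against CSF3R_FIRST without RUNX1-ETO_FIRST replicates 1, 2 or 3, CSF3R_FIRST replicates 1, 2 or 3, RUNX1-ETO_ONLY replicate 2 or CSF3R_ONLY replicate 2 (adjusted p up to 0.152), and its rise in CSF3R_FIRST over CSF3R_ONLY (log2 0.73) was lost without RUNX1-ETO_FIRST replicate 2, CSF3R_FIRST replicates 1 or 2, RUNX1-ETO_ONLY replicate 2 or CSF3R_ONLY replicates 2 or 3 (adjusted p up to 0.184). Irgm1 was not called in CSF3R_ONLY against EMPTY without RUNX1-ETO_FIRST replicate 3, CSF3R_FIRST replicate 1, CSF3R_ONLY replicates 1 or 3 or EMPTY replicates 1 or 2 (adjusted p up to 0.113), and Igtp in CSF3R_FIRST against EMPTY without CSF3R_FIRST replicates 1 or 3 or EMPTY replicates 1 or 2 (adjusted p up to 0.154). Irgm2 was lower in CSF3R_FIRST than in CSF3R_ONLY by log2 0.37, a call lost without RUNX1-ETO_FIRST replicate 3, CSF3R_FIRST replicates 2 or 3 or CSF3R_ONLY replicates 1 or 2 (adjusted p up to 0.158).

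**Figure D3:**
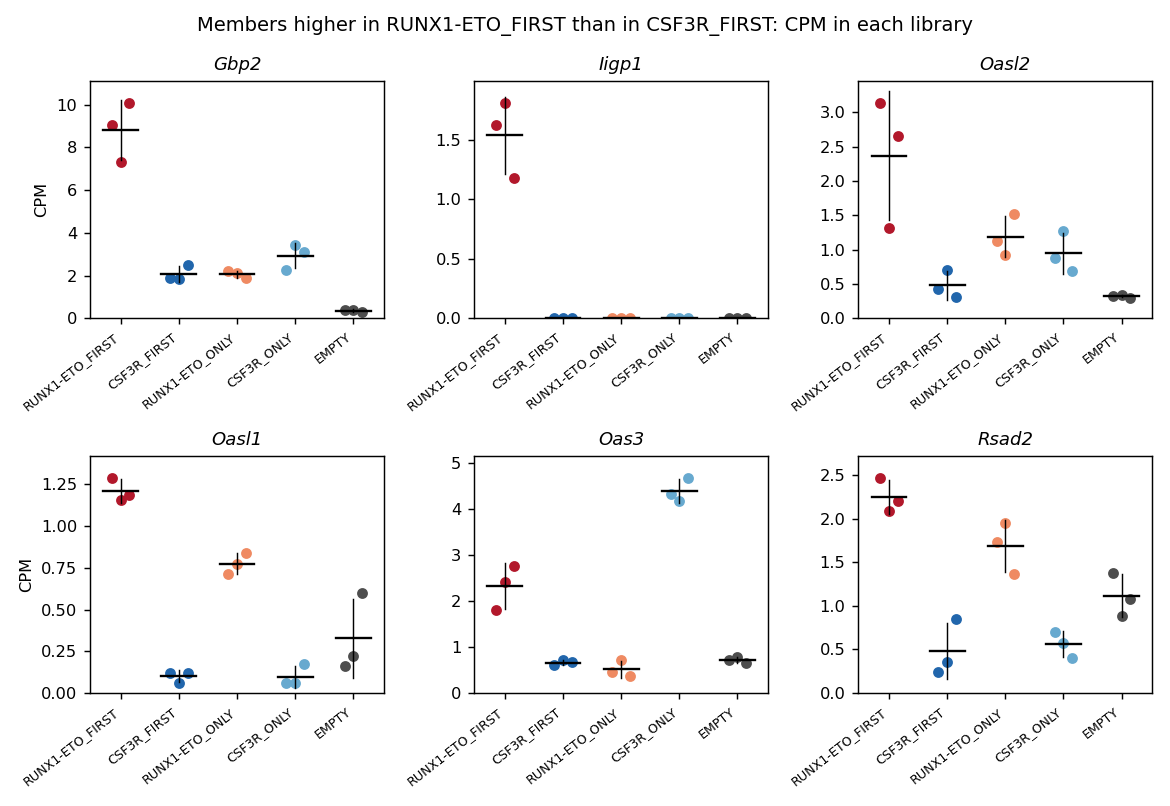
CPM of 6 members higher in RUNX1-ETO_FIRST than in CSF3R_FIRST, in each of the 3 libraries of each group; the horizontal line is the mean and the vertical line 1 SD. In RUNX1-ETO_FIRST Gbp2 averages 8.81 CPM, against 2.06 in CSF3R_FIRST, and Iigp1 has counts in RUNX1-ETO_FIRST only.

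Oligoadenylate synthetases make the second messenger that activates the nuclease RNase L. Oas3 was at 1.79, 2.42 and 2.76 CPM in the RUNX1-ETO_FIRST libraries, 0.602, 0.708 and 0.667 in CSF3R_FIRST, 0.459, 0.719 and 0.367 in RUNX1-ETO_ONLY and 4.32, 4.17 and 4.67 in CSF3R_ONLY, against 0.716, 0.778 and 0.659 in EMPTY. CSF3R_ONLY and RUNX1-ETO_FIRST were high and the other groups overlapped with each other. It was 3.501-fold higher in RUNX1-ETO_FIRST than in CSF3R_FIRST (log2 1.81 ± 0.25, adjusted p = 0.000134), rose 6.06-fold in CSF3R_ONLY over EMPTY (log2 2.60 ± 0.24, adjusted p = 3.39e-07), and was lower in CSF3R_FIRST than in CSF3R_ONLY by log2 2.72 (SE 0.24, adjusted p = 1.63e-07). Oasl2, a synthetase-like protein, was at 3.14, 1.32 and 2.65 CPM in the RUNX1-ETO_FIRST libraries, 0.421, 0.708 and 0.303 in CSF3R_FIRST, 1.12, 0.925 and 1.52 in RUNX1-ETO_ONLY and 0.876, 1.27 and 0.692 in CSF3R_ONLY, against 0.331, 0.333 and 0.2997 in EMPTY. RUNX1-ETO_FIRST and CSF3R_FIRST did not overlap, at log2 2.29 ± 0.39 (adjusted p = 0.000689), and the rise over EMPTY was 7.22-fold in RUNX1-ETO_FIRST, 3.63-fold in RUNX1-ETO_ONLY and 2.904-fold in CSF3R_ONLY (adjusted p = 3.55e-05, 0.00333 and 0.0178).

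Oasl1, a synthetase-like protein known in mice to restrain translation of Irf7, was at 1.29, 1.16 and 1.18 CPM in the RUNX1-ETO_FIRST libraries, 0.1203, 0.05903 and 0.121 in CSF3R_FIRST, 0.714, 0.7705 and 0.839 in RUNX1-ETO_ONLY and 0.0584, 0.0579 and 0.173 in CSF3R_ONLY, against 0.165, 0.222 and 0.5995 in EMPTY. Both groups in which CSF3R-T618I came alone or first were lowest, and RUNX1-ETO_FIRST lay above them without overlap. Oasl1 reached the count of the filter in 7 libraries, none of them in CSF3R_FIRST or CSF3R_ONLY, so its test depended on higher counts elsewhere. It was 11.4-fold higher in RUNX1-ETO_FIRST than in CSF3R_FIRST (log2 3.51 ± 0.50, adjusted p = 0.000138) and rose 3.68-fold over EMPTY (log2 1.88 ± 0.39, adjusted p = 0.00108). Oas2 averaged 0.391 CPM in RUNX1-ETO_FIRST, 0.381 in CSF3R_FIRST, 0.0521 in RUNX1-ETO_ONLY (3 counts in all) and 3.35 in CSF3R_ONLY, against 0.249 in EMPTY. It reached the count of the filter in 4 libraries, of CSF3R_ONLY and RUNX1-ETO_FIRST alone, so its test depended on CSF3R_ONLY being high. Its rise in CSF3R_ONLY over EMPTY was 13.2-fold (log2 3.73 ± 0.39, adjusted p = 1.52e-06), and it was lower in CSF3R_FIRST than in CSF3R_ONLY by log2 3.12 (SE 0.36, adjusted p = 3.35e-06). EMPTY exceeded RUNX1-ETO_ONLY in Oas2 by 4.77-fold with an exact 95% counting interval of 1.31 to 26.1, and RUNX1-ETO_FIRST exceeded it by 7.58-fold (2.26 to 39.7). Oas1a averaged 1.1, 0.455, 0.361 and 2.203 CPM in RUNX1-ETO_FIRST, CSF3R_FIRST, RUNX1-ETO_ONLY and CSF3R_ONLY, against 0.989 in EMPTY, and was called only as lower in CSF3R_FIRST than in CSF3R_ONLY (log2 -2.25, adjusted p = 0.00439).

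Several calls in this family were lost when 1 library was left out. Oasl1 fell in CSF3R_ONLY against EMPTY by log2 1.67, but not without RUNX1-ETO_FIRST replicates 1, 2 or 3, CSF3R_FIRST replicates 1 or 3, RUNX1-ETO_ONLY replicates 1, 2 or 3, CSF3R_ONLY replicates 1 or 2 or EMPTY replicate 3 (adjusted p up to 0.363), and in CSF3R_FIRST by log2 1.63, but not without CSF3R_FIRST replicates 1, 2 or 3 or EMPTY replicate 3 (adjusted p up to 0.328). Both falls were also lost without the 4 libraries low in long transcripts (adjusted p = 0.377 and 0.358), as was the lower Oas2 of RUNX1-ETO_ONLY (adjusted p = 0.0588). The rise of Oasl1 in RUNX1-ETO_ONLY over EMPTY (log2 1.24) was lost without RUNX1-ETO_ONLY replicates 2 or 3 or EMPTY replicates 1 or 2 (adjusted p up to 0.111). The lower Oas2 of RUNX1-ETO_ONLY against EMPTY was lost without RUNX1-ETO_ONLY replicates 1 or 2 or EMPTY replicates 1 or 3 (adjusted p up to 0.115), the rise of Oasl2 in CSF3R_ONLY without CSF3R_ONLY replicate 2 (adjusted p = 0.0851), and its excess in RUNX1-ETO_FIRST over RUNX1-ETO_ONLY (log2 0.99) without RUNX1-ETO_FIRST replicates 1 or 3, RUNX1-ETO_ONLY replicates 1 or 2 or CSF3R_ONLY replicate 1 (adjusted p up to 0.181). The Oas genes are close paralogs.

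Among the signalling members, Irf9 and Irf7 rose in every allele group. Irf9, the DNA-binding subunit of the type I complex, was at 34.04, 33.9 and 37.5 CPM in the RUNX1-ETO_FIRST libraries, 46.9, 42.5 and 47.1 in CSF3R_FIRST, 31.6, 34.5 and 33.8 in RUNX1-ETO_ONLY and 21.02, 21.3 and 20.8 in CSF3R_ONLY, against 13.6, 13.9 and 11.8 in EMPTY. Every allele group lay above EMPTY, with CSF3R_FIRST above all others. It rose 2.68-fold in RUNX1-ETO_FIRST, 3.46-fold in CSF3R_FIRST, 2.53-fold in RUNX1-ETO_ONLY and 1.602-fold in CSF3R_ONLY over EMPTY (adjusted p at most 1.59e-05), and was lower in RUNX1-ETO_FIRST than in CSF3R_FIRST (log2 -0.37 ± 0.081, adjusted p = 0.00429). Irf7, the factor that amplifies type I interferon production, was at 8.36, 6.38 and 5.92 CPM in the RUNX1-ETO_FIRST libraries, 8.54, 9.92 and 8.55 in CSF3R_FIRST, 5.05, 5.08 and 5.14 in RUNX1-ETO_ONLY and 3.33, 3.301 and 3.63 in CSF3R_ONLY, against 0.992, 1.22 and 1.44 in EMPTY. No allele group overlapped with EMPTY. Its rise over EMPTY was 5.65-fold, 7.39-fold, 4.18-fold and 2.81-fold in RUNX1-ETO_FIRST, CSF3R_FIRST, RUNX1-ETO_ONLY and CSF3R_ONLY (adjusted p at most 1.60e-05). CSF3R_FIRST exceeded CSF3R_ONLY by 2.63-fold (log2 1.39 ± 0.15, adjusted p = 1.84e-06).

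Irf1, which relays interferon gamma signals, was at 31.7, 31.6 and 31.2 CPM in the RUNX1-ETO_FIRST libraries, 25.4, 24.9 and 20.6 in CSF3R_FIRST, 26.96, 29.3 and 27.9 in RUNX1-ETO_ONLY and 39.2, 40.4 and 42.2 in CSF3R_ONLY, against 31.4, 27.9 and 26.9 in EMPTY. CSF3R_ONLY was highest and CSF3R_FIRST lowest. It was higher in RUNX1-ETO_FIRST than in CSF3R_FIRST (log2 0.41 ± 0.09, adjusted p = 0.00411), lower in CSF3R_FIRST than in CSF3R_ONLY (log2 -0.78 ± 0.089, adjusted p = 2.76e-06), and rose in CSF3R_ONLY over EMPTY (log2 0.50 ± 0.088, adjusted p = 0.000365). Stat2, part of the complex with IRF9, had 54.5 ± 5.45 CPM in RUNX1-ETO_FIRST, 63.97 ± 5.31 in CSF3R_FIRST, 36.4 ± 5.199 in RUNX1-ETO_ONLY and 46.2 ± 1.42 in CSF3R_ONLY, against 34.5 ± 5.58 in EMPTY (mean ± SD, n = 3 each), and rose against EMPTY in all groups but RUNX1-ETO_ONLY (log2 0.078 ± 0.13, adjusted p = 0.661). Irf1 fell in CSF3R_FIRST against EMPTY (log2 -0.28), a call lost without CSF3R_FIRST replicate 3 or EMPTY replicate 1 (adjusted p up to 0.0857). The rise of Stat2 in CSF3R_ONLY was lost without CSF3R_ONLY replicate 1 or EMPTY replicate 3 (adjusted p up to 0.0688), and that of Irf7 in RUNX1-ETO_FIRST over RUNX1-ETO_ONLY (log2 0.44) without RUNX1-ETO_FIRST replicate 1, CSF3R_FIRST replicate 1, RUNX1-ETO_ONLY replicates 1, 2 or 3 or CSF3R_ONLY replicates 1, 2 or 3 (adjusted p up to 0.216). The Irf7 call was also lost without the 4 libraries low in long transcripts (adjusted p = 0.237).

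**Figure D4:**
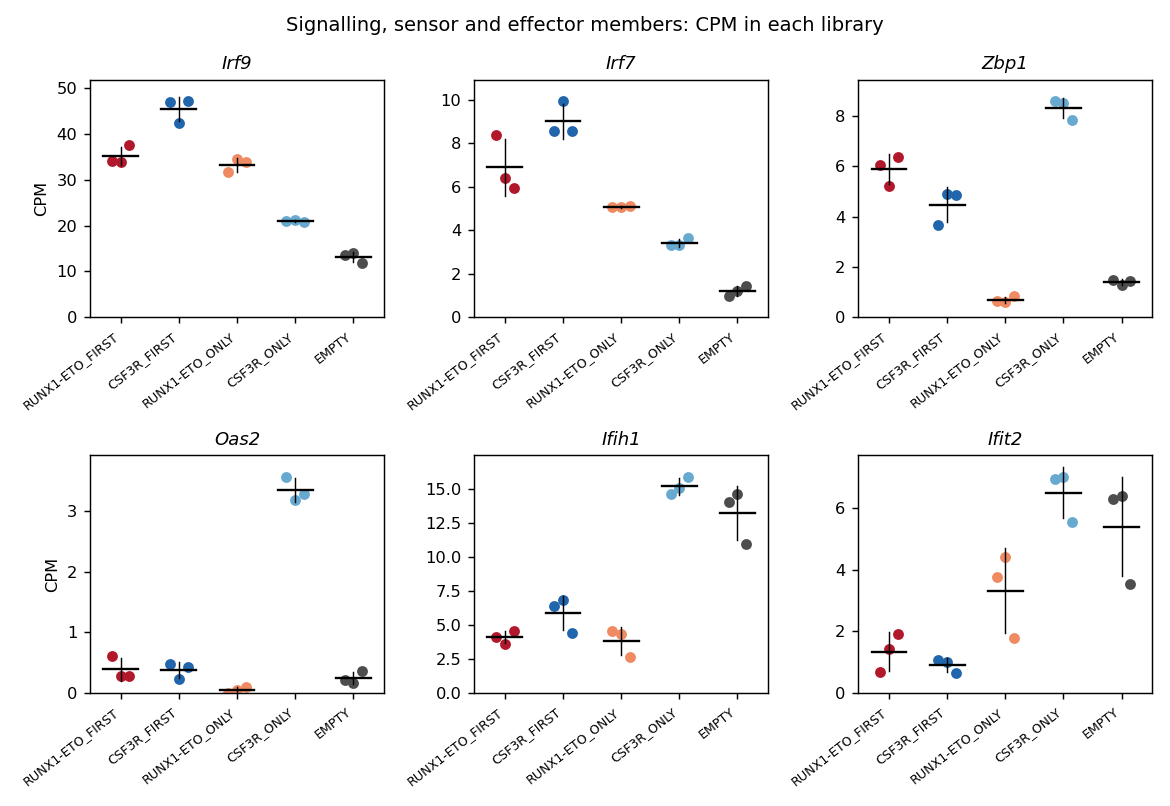
CPM of 6 signalling, sensor and effector members in each library; the horizontal line is the mean of 3 libraries and the vertical line 1 SD. Irf9 and Irf7 are lowest in EMPTY, Zbp1 and Oas2 are highest in CSF3R_ONLY, and Ifih1 and Ifit2 are low in both groups that carry both alleles.

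The nucleic acid sensors split by allele. Ddx58, which encodes RIG-I, was at 30.9, 30.8 and 27.3 CPM in the RUNX1-ETO_FIRST libraries, 37.6, 39.1 and 36.9 in CSF3R_FIRST, 18.6, 21.1 and 19.9 in RUNX1-ETO_ONLY and 34.6, 36.1 and 34.8 in CSF3R_ONLY, against 19.3, 19.8 and 15.6 in EMPTY. CSF3R_ONLY and both groups with both alleles lay above EMPTY, and RUNX1-ETO_ONLY overlapped with it. It rose in RUNX1-ETO_FIRST (log2 0.70 ± 0.095, adjusted p = 1.67e-05), CSF3R_FIRST (log2 1.05 ± 0.094, adjusted p = 1.26e-07) and CSF3R_ONLY (log2 0.95 ± 0.094, adjusted p = 1.01e-06), and was lower in RUNX1-ETO_FIRST than in CSF3R_FIRST (log2 -0.35 ± 0.092, adjusted p = 0.0141). Ifih1, which encodes the long-RNA sensor MDA5, was at 4.15, 3.63 and 4.57 CPM in the RUNX1-ETO_FIRST libraries, 6.38, 6.85 and 4.43 in CSF3R_FIRST, 4.54, 4.32 and 2.67 in RUNX1-ETO_ONLY and 14.7, 15.1 and 15.9 in CSF3R_ONLY, against 14.1, 14.7 and 10.97 in EMPTY. The groups with RUNX1-ETO were low and CSF3R_ONLY overlapped with EMPTY. It fell 3.21-fold in RUNX1-ETO_FIRST, 2.25-fold in CSF3R_FIRST and 3.44-fold in RUNX1-ETO_ONLY against EMPTY (adjusted p = 2.71e-06, 6.62e-05 and 1.79e-06), and was 2.58-fold lower in CSF3R_FIRST than in CSF3R_ONLY (adjusted p = 1.64e-05).

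Dhx58, which encodes LGP2, a modulator of both sensors, was at 9.37, 7.97 and 8.85 CPM in the RUNX1-ETO_FIRST libraries, 8.18, 7.62 and 10.98 in CSF3R_FIRST, 4.84, 4.06 and 4.61 in RUNX1-ETO_ONLY and 10.9, 9.96 and 9.81 in CSF3R_ONLY, against 9.698, 9.89 and 8.99 in EMPTY. RUNX1-ETO_ONLY lay below all other groups. It fell 2.11-fold there against EMPTY (log2 -1.08 ± 0.14, adjusted p = 1.50e-05) and was 1.94-fold higher in RUNX1-ETO_FIRST (log2 0.95 ± 0.14, adjusted p = 0.000108). Zbp1, a sensor of Z-form nucleic acids that can start necroptosis, was at 6.06, 5.22 and 6.37 CPM in the RUNX1-ETO_FIRST libraries, 3.67, 4.9 and 4.85 in CSF3R_FIRST, 0.662, 0.616 and 0.839 in RUNX1-ETO_ONLY and 8.58, 8.51 and 7.85 in CSF3R_ONLY, against 1.49, 1.28 and 1.44 in EMPTY. The groups did not overlap in any of the 7 pairwise comparisons, with RUNX1-ETO_ONLY lowest and CSF3R_ONLY highest. It rose 4.18-fold in RUNX1-ETO_FIRST, 3.18-fold in CSF3R_FIRST and 5.91-fold in CSF3R_ONLY over EMPTY (adjusted p = 6.19e-08, 7.62e-07 and 6.79e-09), and fell in RUNX1-ETO_ONLY (log2 -0.98 ± 0.22, adjusted p = 0.00228). RUNX1-ETO_FIRST exceeded RUNX1-ETO_ONLY by 8.27-fold (log2 3.05 ± 0.19, adjusted p = 6.81e-09) but did not differ detectably from CSF3R_FIRST (log2 0.39 ± 0.15, adjusted p = 0.0799).

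Eif2ak2, the kinase PKR that stops translation on double-stranded RNA, had 22.7 ± 2.11 CPM in RUNX1-ETO_FIRST, 21.5 ± 1.42 in CSF3R_FIRST, 23.4 ± 2.67 in RUNX1-ETO_ONLY and 30.9 ± 0.355 in CSF3R_ONLY, against 21.9 ± 6.49 in EMPTY. It was called higher in CSF3R_ONLY than in EMPTY (log2 0.50), a call lost without RUNX1-ETO_FIRST replicate 3, CSF3R_FIRST replicate 2, CSF3R_ONLY replicates 1, 2 or 3 or EMPTY replicate 3 (adjusted p up to 0.0741), and lower in CSF3R_FIRST than in CSF3R_ONLY (log2 -0.52), lost without CSF3R_FIRST replicates 2 or 3 (adjusted p up to 0.0788). The difference in Ddx58 between RUNX1-ETO_FIRST and CSF3R_FIRST was lost without RUNX1-ETO_FIRST replicate 3 (adjusted p = 0.0572) and with library sizes in place of TMM (adjusted p = 0.0959).

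Of the genes of the IFIT proteins, which bind viral RNA ends, Ifit1 and Ifit3 were hardly expressed, while Ifit2 passed the filter in all 15 libraries. Ifit1 had at most 4 counts and Ifit3 at most 2 in any library, and neither was tested. Bases 130 to 30 before the Ifit1 start and 180 to 80 before the Ifit3 start hold 2 ISRE matches each (capitals). They lie at chr19:34640759-34640858, plus strand and chr19:34583349-34583448, plus strand.
Ifit1: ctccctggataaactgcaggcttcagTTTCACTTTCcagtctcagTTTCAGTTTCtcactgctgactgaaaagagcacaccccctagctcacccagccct
Ifit3: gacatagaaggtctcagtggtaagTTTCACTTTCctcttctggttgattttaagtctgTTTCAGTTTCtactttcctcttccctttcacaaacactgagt
Ifit2 was at 0.673, 1.43 and 1.92 CPM in the RUNX1-ETO_FIRST libraries, 1.08, 1.004 and 0.667 in CSF3R_FIRST, 3.77, 4.42 and 1.78 in RUNX1-ETO_ONLY and 6.95, 7.01 and 5.54 in CSF3R_ONLY, against 6.28, 6.39 and 3.54 in EMPTY. Both groups with both alleles lay below CSF3R_ONLY and EMPTY. It fell 4.03-fold in RUNX1-ETO_FIRST (log2 -2.01 ± 0.36, adjusted p = 0.000281) and 5.86-fold in CSF3R_FIRST (log2 -2.55 ± 0.39, adjusted p = 4.19e-05) against EMPTY, and was 7.03-fold lower in CSF3R_FIRST than in CSF3R_ONLY (log2 -2.81 ± 0.38, adjusted p = 1.74e-05). Neither single allele gave a call against EMPTY (log2 -0.70 ± 0.32 in RUNX1-ETO_ONLY and 0.26 ± 0.30 in CSF3R_ONLY). Ifit2 was also called lower in RUNX1-ETO_FIRST than in RUNX1-ETO_ONLY (log2 -1.31), with overlapping libraries, a call lost without RUNX1-ETO_FIRST replicate 1 or RUNX1-ETO_ONLY replicates 1 or 2 (adjusted p up to 0.0831).

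Of the 9 antiviral effectors, Mx1 and Mx2, GTPases that block viral replication, and Ifi44 had at most 4 counts in any library. Rsad2, which encodes viperin, was at 2.47, 2.09 and 2.199 CPM in the RUNX1-ETO_FIRST libraries, 0.241, 0.354 and 0.849 in CSF3R_FIRST, 1.73, 1.95 and 1.36 in RUNX1-ETO_ONLY and 0.701, 0.579 and 0.404 in CSF3R_ONLY, against 1.38, 0.889 and 1.08 in EMPTY. RUNX1-ETO_FIRST lay above every other group, and CSF3R_FIRST overlapped with CSF3R_ONLY. It was 4.64-fold higher in RUNX1-ETO_FIRST than in CSF3R_FIRST (log2 2.21 ± 0.35, adjusted p = 0.000371). Against EMPTY it rose in RUNX1-ETO_FIRST (log2 1.01), a call lost without EMPTY replicate 2 (adjusted p = 0.0559), and fell in CSF3R_FIRST (log2 -1.21), lost without CSF3R_FIRST replicates 1 or 2 or EMPTY replicate 1 (adjusted p up to 0.0709). Xaf1, a proapoptotic partner of XIAP, was at 1.79, 0.9897 and 1.01 CPM in the RUNX1-ETO_FIRST libraries, 0.481, 0.531 and 0.424 in CSF3R_FIRST, 0.764, 1.03 and 1.94 in RUNX1-ETO_ONLY and 0.292, 0.174 and 0.462 in CSF3R_ONLY, against 0.716, 0.444 and 0.2398 in EMPTY. Xaf1 reached the count of the filter in 7 libraries, none of them in CSF3R_FIRST or CSF3R_ONLY, so its test depended on higher counts elsewhere. RUNX1-ETO_FIRST and RUNX1-ETO_ONLY were the higher groups. Rtp4, a receptor transporter protein, was at 0.673, 0.6598 and 0.451 CPM in the RUNX1-ETO_FIRST libraries, 0.1203, 0.177 and 0 in CSF3R_FIRST, 0.815, 0.668 and 0.577 in RUNX1-ETO_ONLY and 0.117, 0.116 and 0.346 in CSF3R_ONLY, against 0.0551, 0.0555 and 0.4196 in EMPTY. The same groups were higher, at under 1 CPM on average. Rtp4 reached the count of the filter in 5 libraries, of those groups alone, so its test depended on their being high. In RUNX1-ETO_FIRST against CSF3R_FIRST, Xaf1 differed by log2 1.39 ± 0.45 (adjusted p = 0.0457) and Rtp4 by 2.49 ± 0.73 (adjusted p = 0.0264). The Xaf1 call was lost without RUNX1-ETO_FIRST replicates 1, 2 or 3, CSF3R_FIRST replicates 1, 2 or 3, RUNX1-ETO_ONLY replicate 2, CSF3R_ONLY replicates 1, 2 or 3 or EMPTY replicate 2 (adjusted p up to 0.169) and the Rtp4 call without RUNX1-ETO_FIRST replicates 1 or 2 or CSF3R_FIRST replicates 1 or 3 (adjusted p up to 0.0988).

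Against EMPTY, Xaf1 rose by log2 1.41 in RUNX1-ETO_FIRST, a call lost without RUNX1-ETO_FIRST replicate 1 or EMPTY replicates 2 or 3 (adjusted p up to 0.09499), and by log2 1.38 in RUNX1-ETO_ONLY, lost without RUNX1-ETO_ONLY replicate 3 or EMPTY replicates 2 or 3 (adjusted p up to 0.132). Both were lost without the 4 libraries low in long transcripts (adjusted p = 0.173 and 0.305). Rtp4 rose by log2 1.76 in RUNX1-ETO_FIRST, lost without RUNX1-ETO_FIRST replicates 1 or 2 or EMPTY replicates 1 or 2 (adjusted p up to 0.136), and by log2 1.96 in RUNX1-ETO_ONLY, lost without RUNX1-ETO_ONLY replicate 1 or EMPTY replicates 1 or 2 (adjusted p up to 0.0855). Bst2, tetherin, which holds budding virus at the membrane, was at 50.8, 40.6 and 39.3 CPM in the RUNX1-ETO_FIRST libraries, 54.4, 48.4 and 56.03 in CSF3R_FIRST, 30.4, 31.3 and 35.4 in RUNX1-ETO_ONLY and 20.6, 19.3 and 19.8 in CSF3R_ONLY, against 23.5, 20.7 and 30.1 in EMPTY. Both groups with both alleles lay above the rest, and CSF3R_ONLY lay below EMPTY. It rose in RUNX1-ETO_FIRST (log2 0.81 ± 0.13, adjusted p = 8.96e-05) and CSF3R_FIRST (log2 1.09 ± 0.13, adjusted p = 3.00e-06) over EMPTY, and was 2.66-fold higher in CSF3R_FIRST than in CSF3R_ONLY (log2 1.41 ± 0.13, adjusted p = 2.85e-07). Its smaller rises in RUNX1-ETO_ONLY over EMPTY (log2 0.39) and in RUNX1-ETO_FIRST over RUNX1-ETO_ONLY (log2 0.43) were lost without RUNX1-ETO_ONLY replicate 3 or EMPTY replicates 1 or 2 (adjusted p up to 0.1202) and without RUNX1-ETO_FIRST replicate 1 or RUNX1-ETO_ONLY replicates 1 or 2 (adjusted p up to 0.118).

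Isg20, an exonuclease, was at 11.1, 9.51 and 10.1 CPM in the RUNX1-ETO_FIRST libraries, 11.8, 11.3 and 10.6 in CSF3R_FIRST, 2.701, 4.26 and 5.92 in RUNX1-ETO_ONLY and 17.2, 18.9 and 15.6 in CSF3R_ONLY, against 8.98, 5.83 and 14.8 in EMPTY. RUNX1-ETO_ONLY was lowest and CSF3R_ONLY highest. It fell 2.29-fold in RUNX1-ETO_ONLY against EMPTY (log2 -1.20 ± 0.28, adjusted p = 0.00333) with overlapping libraries. That call was lost in a fit of only the groups compared (adjusted p = 0.0503). Isg20 was 2.38-fold higher in RUNX1-ETO_FIRST than in RUNX1-ETO_ONLY (log2 1.25 ± 0.28, adjusted p = 0.00368). It rose in CSF3R_ONLY over EMPTY (log2 0.81), a call lost without CSF3R_ONLY replicates 1 or 2 or EMPTY replicates 1 or 2 (adjusted p up to 0.0891). Ifi35, a leucine zipper protein, ranged from 17.1 CPM in CSF3R_ONLY to 20.8 in CSF3R_FIRST, against 18.3 in EMPTY, and was called in none of the 7 comparisons.

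Isg15, the ubiquitin-like modifier, and Usp18, the protease that removes it and dampens the receptor, were near the limit of detection. Isg15 averaged 0.54, 0.936, 0.188 and 0.309 CPM in RUNX1-ETO_FIRST, CSF3R_FIRST, RUNX1-ETO_ONLY and CSF3R_ONLY, against 0.2704 in EMPTY. It reached the count of the filter in 5 libraries, none of them in RUNX1-ETO_ONLY or EMPTY, so its test depended on higher counts elsewhere. Its promoter window held 3 overlapping ISRE matches, the most among the promoters printed here (chr4:156200819-156200918, minus strand).
Isg15: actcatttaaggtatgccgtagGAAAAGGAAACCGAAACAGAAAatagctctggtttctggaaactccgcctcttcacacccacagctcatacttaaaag
Isg15 rose in CSF3R_FIRST over EMPTY (log2 1.79), a call lost without CSF3R_FIRST replicate 2 or EMPTY replicates 1 or 2 (adjusted p up to 0.089), and over CSF3R_ONLY (log2 1.58), lost without RUNX1-ETO_FIRST replicates 2 or 3, CSF3R_FIRST replicates 1 or 2, RUNX1-ETO_ONLY replicate 1, CSF3R_ONLY replicates 1 or 2 or EMPTY replicate 1 (adjusted p up to 0.167). Usp18 averaged 0.504, 0.239, 0.654 and 0.0772 CPM in the same groups, against 0.171 in EMPTY. It reached the count of the filter in 4 libraries, of RUNX1-ETO_FIRST and RUNX1-ETO_ONLY alone, so its test depended on their being high. It rose in RUNX1-ETO_ONLY over EMPTY (log2 1.90) and in RUNX1-ETO_FIRST (log2 1.52), where the call was lost without RUNX1-ETO_FIRST replicates 1 or 3 or EMPTY replicates 1 or 3 (adjusted p up to 0.136). Without the 4 libraries low in long transcripts Usp18 was below the filter and had no test. Trim25, the ubiquitin ligase that activates RIG-I, had 62.8 ± 7.93 CPM in RUNX1-ETO_FIRST, 57.5 ± 6.21 in CSF3R_FIRST, 69.3 ± 10.7 in RUNX1-ETO_ONLY and 89.7 ± 0.855 in CSF3R_ONLY, against 79.3 ± 21.4 in EMPTY, and was lower in CSF3R_FIRST than in CSF3R_ONLY (log2 -0.64 ± 0.17, adjusted p = 0.00557). It also fell in CSF3R_FIRST against EMPTY (log2 -0.46), a call lost without CSF3R_FIRST replicates 1 or 3 or EMPTY replicates 1 or 2 (adjusted p up to 0.161).

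Both members of the PARP family rose in all 4 allele groups. Parp14, an ADP-ribosyltransferase that modulates STAT signalling, was at 14.4, 17.6 and 17.8 CPM in the RUNX1-ETO_FIRST libraries, 17.9, 18.8 and 14.6 in CSF3R_FIRST, 16.1, 15.4 and 13.2 in RUNX1-ETO_ONLY and 12.3, 13.5 and 12.5 in CSF3R_ONLY, against 5.29, 5.498 and 3.78 in EMPTY. Every allele library lay above every EMPTY library. It rose 3.404-fold in RUNX1-ETO_FIRST, 3.51-fold in CSF3R_FIRST, 3.06-fold in RUNX1-ETO_ONLY and 2.62-fold in CSF3R_ONLY over EMPTY (adjusted p at most 2.92e-06). Parp9, which works with the ligase DTX3L, was at 33.3, 33.04 and 34.8 CPM in the RUNX1-ETO_FIRST libraries, 38.2, 37.8 and 34.4 in CSF3R_FIRST, 25.99, 26.6 and 24.2 in RUNX1-ETO_ONLY and 26.9, 24.7 and 25.1 in CSF3R_ONLY, against 16.6, 13.7 and 14.8 in EMPTY. It rose by log2 1.17, 1.29, 0.77 and 0.77 in those groups over EMPTY (adjusted p at most 4.15e-06) and was 1.44-fold higher in CSF3R_FIRST than in CSF3R_ONLY (log2 0.53 ± 0.084, adjusted p = 8.52e-05). Parp9 overlaps Dtx3l by 458 bases on the other strand. Parp14 was also higher in CSF3R_FIRST than in CSF3R_ONLY (log2 0.42), a call lost without CSF3R_FIRST replicate 2 or CSF3R_ONLY replicates 1 or 3 (adjusted p up to 0.0709).

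The antigen-processing members went the other way from the GTPases and fell in every allele group. Tap1, a subunit of the transporter that loads peptides onto MHC class I, and Psmb8 and Psmb9, subunits of the immunoproteasome, lie next to each other on chromosome 17, where Tap1 and Psmb9 overlap by 212 bases on opposite strands. The 225 bases before the Tap1 start, the stretch that lies toward Psmb9, held no ISRE match (chr17:34187331-34187555, plus strand), nor did the windows of Psmb8 and Psmb9. The Psmb8 window held a GAS match. Windows of Irf9 and Irf7, which rose in all 4 groups, held no ISRE match either.
Tap1: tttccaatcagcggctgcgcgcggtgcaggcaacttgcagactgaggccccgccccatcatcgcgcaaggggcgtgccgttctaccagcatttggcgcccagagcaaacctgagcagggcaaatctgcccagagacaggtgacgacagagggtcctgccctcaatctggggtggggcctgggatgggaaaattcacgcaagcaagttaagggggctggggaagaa
Tap1 was at 80.98, 73.95 and 79.7 CPM in the RUNX1-ETO_FIRST libraries, 65.8, 65.3 and 62.5 in CSF3R_FIRST, 60.2, 61.2 and 59.7 in RUNX1-ETO_ONLY and 54.6, 57.98 and 53.6 in CSF3R_ONLY, against 116, 113 and 115 in EMPTY. Every allele library lay below every EMPTY library. It fell 1.47-fold in RUNX1-ETO_FIRST, 1.78-fold in CSF3R_FIRST, 1.901-fold in RUNX1-ETO_ONLY and 2.07-fold in CSF3R_ONLY (adjusted p at most 2.77e-06). It was 1.21-fold higher in RUNX1-ETO_FIRST than in CSF3R_FIRST (log2 0.28 ± 0.064, adjusted p = 0.006203). Psmb8 was at 95.2, 77.5 and 78.02 CPM in the RUNX1-ETO_FIRST libraries, 82.7, 78.9 and 95.5 in CSF3R_FIRST, 73.1, 73.7 and 93.4 in RUNX1-ETO_ONLY and 79.05, 79.5 and 82.8 in CSF3R_ONLY, against 116, 108 and 148 in EMPTY. No allele group overlapped with EMPTY. Its fall was 1.48-fold, 1.45-fold, 1.55-fold and 1.54-fold in the same order of groups (adjusted p at most 0.002298). Psmb9 was at 22.3, 20.1 and 20.5 CPM in the RUNX1-ETO_FIRST libraries, 17.1, 18.1 and 20.9 in CSF3R_FIRST, 21.2, 19.8 and 22.5 in RUNX1-ETO_ONLY and 27.03, 25.7 and 27.8 in CSF3R_ONLY, against 41.1, 35.99 and 50.96 in EMPTY. EMPTY was again highest, by 2.04-fold over RUNX1-ETO_FIRST, 2.28-fold over CSF3R_FIRST, 2.02-fold over RUNX1-ETO_ONLY and 1.59-fold over CSF3R_ONLY (adjusted p at most 0.000281). The Tap1 difference between RUNX1-ETO_FIRST and CSF3R_FIRST was not called without the filter on low counts (adjusted p = 0.0886), and the higher Tap1 of CSF3R_FIRST over CSF3R_ONLY (log2 0.22) was lost without CSF3R_ONLY replicate 3 (adjusted p = 0.0518).

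Other genes of the same pathway, chosen for naming after their values were seen, did not all follow. Nlrc5, the transactivator of MHC class I genes, was at 7.23, 9.95 and 11.1 CPM in the RUNX1-ETO_FIRST libraries, 1.26, 1.18 and 0.728 in CSF3R_FIRST, 4.28, 3.39 and 3.41 in RUNX1-ETO_ONLY and 1.52, 2.201 and 1.67 in CSF3R_ONLY, against 19.1, 18.6 and 9.65 in EMPTY. RUNX1-ETO_FIRST overlapped with EMPTY and the other 3 groups were lower. It was 8.86-fold higher in RUNX1-ETO_FIRST than in CSF3R_FIRST (log2 3.15 ± 0.31, adjusted p = 4.14e-06). B2m, the class I light chain, had 793 ± 60.96 CPM in RUNX1-ETO_FIRST, 828 ± 62.8 in CSF3R_FIRST, 551 ± 45.4 in RUNX1-ETO_ONLY and 609 ± 21.1 in CSF3R_ONLY, against 1150.0 ± 407 in EMPTY, and the class I heavy chain H2-D1 had 419 ± 35.5 CPM in RUNX1-ETO_FIRST, 388 ± 8.09 in CSF3R_FIRST, 233 ± 19.7 in RUNX1-ETO_ONLY and 347 ± 9.86 in CSF3R_ONLY, against 534 ± 87.2 in EMPTY. Both fell in all 4 groups against EMPTY, as did Tap2, the partner of Tap1 (91.6, 100.1, 79.5 and 112 CPM, against 142 in EMPTY). H2-K1 fell in RUNX1-ETO_ONLY (log2 -0.95) and CSF3R_ONLY (log2 -0.49) and was not called in RUNX1-ETO_FIRST (log2 0.038 ± 0.11) or CSF3R_FIRST (log2 0.18 ± 0.11). Tapbp, tapasin, rose in all 4, by log2 0.74 in CSF3R_ONLY and 1.45 in CSF3R_FIRST. Class I genes have close paralogs, so reads could have been shared among them.

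**Figure D5:**
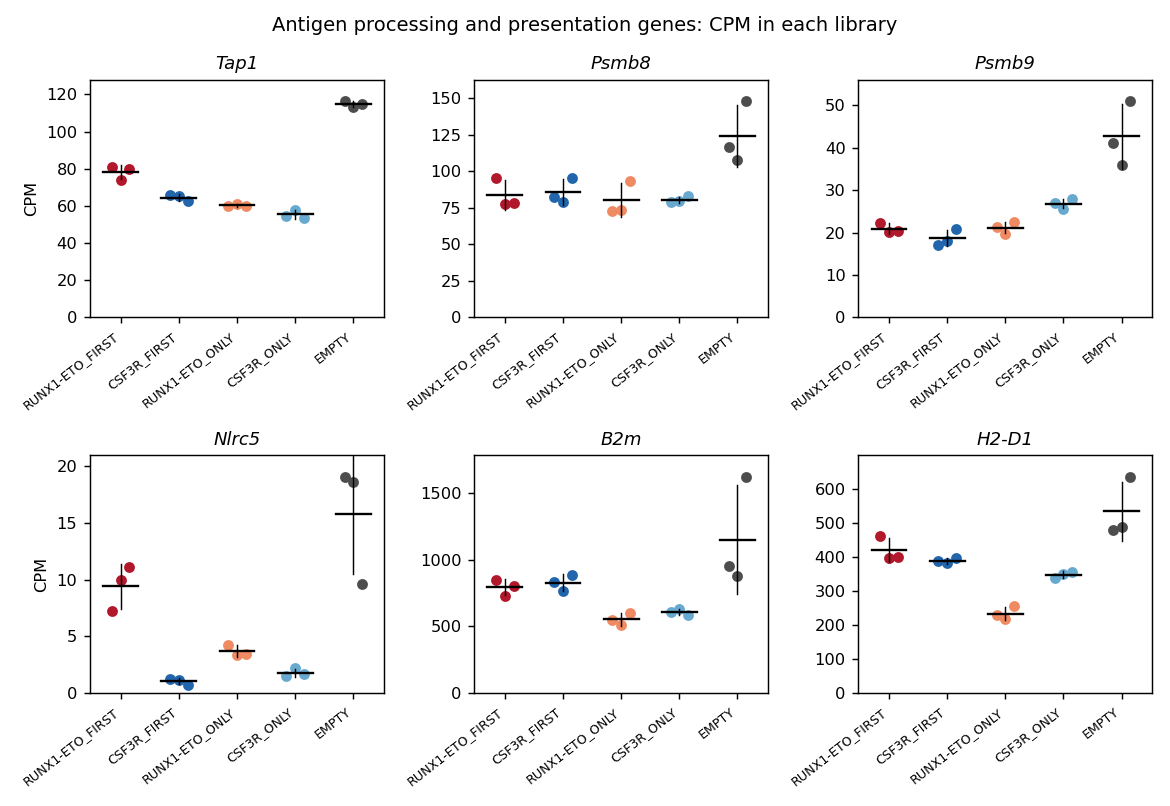
CPM of the 3 antigen-processing members and of Nlrc5, B2m and H2-D1 in each library; the horizontal line is the mean of 3 libraries and the vertical line 1 SD. Tap1, Psmb8 and Psmb9 are highest in EMPTY, with Tap1 at 78.2 CPM in RUNX1-ETO_FIRST and 115 in EMPTY.

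Whether the second allele acted on a member as it did alone was tested as a difference of log2 effects. The effect of CSF3R-T618I on top of RUNX1-ETO differed from its effect on EMPTY for 12 of 36 members, 7 upwards and 5 downwards, with 15.7% of all genes called (6.34% upwards, 9.39% downwards). The effect of RUNX1-ETO on top of CSF3R-T618I differed from its effect on EMPTY for 13 members, 6 upwards and 7 downwards, with 22.8% of all genes called (10.3% upwards, 12.4% downwards). With library sizes in place of TMM the second count was 4 upwards and 12 downwards. All 3 antigen-processing members were positive in both tests, and each allele alone lowered them. Added second, CSF3R-T618I and RUNX1-ETO gave log2 0.37 and 0.22 for Tap1, both called as rises. They gave 0.062 and 0.091 for Psmb8, and -0.015 and -0.52 for Psmb9. For Psmb9, RUNX1-ETO still lowered the level on CSF3R-T618I (log2 -0.52, adjusted p = 0.00197). For Tap1, CSF3R-T618I gave log2 0.37 on RUNX1-ETO and -1.05 on EMPTY, a difference of 1.42 ± 0.09 (adjusted p = 3.62e-08). For Gbp2, RUNX1-ETO gave log2 -0.51 on CSF3R-T618I and 2.50 on EMPTY, a difference of -3.01 ± 0.35 (adjusted p = 1.74e-05), while CSF3R-T618I gave 2.09 on RUNX1-ETO and 3.01 on EMPTY, which did not differ detectably (-0.92 ± 0.35, adjusted p = 0.0917). For Oas3, RUNX1-ETO gave log2 -2.72 on CSF3R-T618I and -0.47 on EMPTY (-2.25 ± 0.40, adjusted p = 0.000713). Parp14 was negative in both tests, and so was Ifit2. Both tests share the EMPTY, RUNX1-ETO_ONLY and CSF3R_ONLY libraries.

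The rest of the pathway was read from a list of 161 genes that are no members, of which 109 passed the filter. None of 21 interferon genes did, and only Ifnz had any counts, 3 over all libraries, so that no ligand was detectable at this depth. Of the 109, 14 were higher and 22 lower in RUNX1-ETO_FIRST than in CSF3R_FIRST (18.2% of all genes called, 7.18% higher and 11.1% lower). Their median log2 difference was -0.10, so the excess of rises among the members was not seen in this list. Of its 72 tested other target genes, 13 were higher and 13 lower. Against EMPTY 49 pathway genes rose and 18 fell in RUNX1-ETO_FIRST (43.8% of all genes called, 23.7% risen and 20.1% fallen). In CSF3R_FIRST 61 rose and 24 fell (53.3% called, 26.7% risen and 26.5% fallen). In RUNX1-ETO_ONLY 46 rose and 19 fell (38.9% called, 20.8% risen and 18.1% fallen), and in CSF3R_ONLY 48 and 14 (32.9% called, 19.9% risen and 13% fallen). Of the receptors, Ifngr1, the ligand-binding chain for interferon gamma, had 93.9 ± 6.08 CPM in RUNX1-ETO_FIRST, 120.4 ± 0.1898 in CSF3R_FIRST, 93.9 ± 5.09 in RUNX1-ETO_ONLY and 179.7 ± 3.24 in CSF3R_ONLY, against 193 ± 14.04 in EMPTY (mean ± SD, n = 3 each). It fell by log2 1.04 in RUNX1-ETO_FIRST, 0.68 in CSF3R_FIRST and 1.04 in RUNX1-ETO_ONLY against EMPTY (adjusted p at most 8.22e-07), and was not called in CSF3R_ONLY (-0.10 ± 0.071). The type I receptor chain Ifnar1 had 63.8 ± 3.87 CPM in RUNX1-ETO_FIRST, 66.1 ± 3.86 in CSF3R_FIRST, 61.2 ± 4.07 in RUNX1-ETO_ONLY and 57.8 ± 2.46 in CSF3R_ONLY, against 48.2 ± 10.4 in EMPTY, a difference of log2 0.46 at most over EMPTY. Il10rb, the shared chain of the lambda receptor, rose in RUNX1-ETO_FIRST, CSF3R_FIRST and CSF3R_ONLY (log2 0.64, 0.87 and 0.84), with a smaller rise in RUNX1-ETO_ONLY (log2 0.48).

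Among kinases and STATs, Jak2, which serves the interferon gamma and cytokine receptors, had 74.5 ± 9.79 CPM in RUNX1-ETO_FIRST, 75.5 ± 4.49 in CSF3R_FIRST, 51 ± 6.08 in RUNX1-ETO_ONLY and 78.4 ± 4.47 in CSF3R_ONLY, against 36.04 ± 8.63 in EMPTY. It rose 2.06-fold, 2.09-fold, 1.41-fold and 2.17-fold over EMPTY in RUNX1-ETO_FIRST, CSF3R_FIRST, RUNX1-ETO_ONLY and CSF3R_ONLY (adjusted p at most 0.0144). Jak1 and Stat3 (Stat3 being a main relay of the granulocyte colony-stimulating factor receptor) rose in all 4 as well. Tyk2 passed the threshold in none against EMPTY. Of the brakes, Socs1, an inhibitor of JAK kinases, had 31.7 ± 3.32 CPM in RUNX1-ETO_FIRST, 52.3 ± 3.02 in CSF3R_FIRST, 4.99 ± 0.711 in RUNX1-ETO_ONLY and 8.08 ± 0.305 in CSF3R_ONLY, against 0.724 ± 0.204 in EMPTY. It rose 43.6-fold over EMPTY in RUNX1-ETO_FIRST and 71.9-fold in CSF3R_FIRST, and was lower in RUNX1-ETO_FIRST than in CSF3R_FIRST (log2 -0.72 ± 0.11, adjusted p = 0.000222). Ptpn2, a phosphatase that acts on JAK kinases and STATs, was also lower there (log2 -0.62 ± 0.10, adjusted p = 0.000656).

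Irf8, a factor of the monocyte and dendritic lineages, had 18.5 ± 0.425 CPM in RUNX1-ETO_FIRST, 7.61 ± 0.426 in CSF3R_FIRST, 23.7 ± 1.32 in RUNX1-ETO_ONLY and 0.928 ± 0.253 in CSF3R_ONLY, against 9.96 ± 0.258 in EMPTY. It rose in RUNX1-ETO_FIRST (log2 0.89 ± 0.10, adjusted p = 3.55e-06) and RUNX1-ETO_ONLY (log2 1.25 ± 0.10, adjusted p = 9.30e-08) and fell in CSF3R_ONLY (log2 -3.41 ± 0.15, adjusted p = 6.02e-11) and CSF3R_FIRST (log2 -0.39 ± 0.11, adjusted p = 0.00801). It was higher in RUNX1-ETO_FIRST than in CSF3R_FIRST (log2 1.28 ± 0.11, adjusted p = 8.05e-07). Irf5 was lower there (log2 -0.44 ± 0.10, adjusted p = 0.00741). The endosomal sensor Tlr8 had 0.427, 1.71, 0.586 and 0.966 CPM in RUNX1-ETO_FIRST, CSF3R_FIRST, RUNX1-ETO_ONLY and CSF3R_ONLY, against 0.129 in EMPTY. Tlr7 had 0.335, 0.238, 0.532 and 2.22, against 1.02, and Tlr9 had 2.21, 1.62, 0.992 and 0.349, against 0.523. Tgtp1, a GTPase of the same family as Iigp1, had 4.57 CPM in RUNX1-ETO_FIRST, 0.518 in CSF3R_FIRST and 1.61 in RUNX1-ETO_ONLY, with 0 counts in CSF3R_ONLY and EMPTY. That was at least 26.8-fold over EMPTY in RUNX1-ETO_FIRST, at least 3.04-fold in CSF3R_FIRST and at least 9.41-fold in RUNX1-ETO_ONLY, and RUNX1-ETO_FIRST exceeded CSF3R_FIRST (log2 3.12 ± 0.42, adjusted p = 0.000347). Tgtp2 is a near-identical copy, so the value may be of either. Gbp9 had 0.986, 2.56, 0.757 and 0.213 CPM, against 1 count in EMPTY, a ratio of 52.1 (exact 95% counting interval 8.95 to 2096) in RUNX1-ETO_FIRST, 135.1 (23.8 to 5378) in CSF3R_FIRST, 40.0 (6.81 to 1614) in RUNX1-ETO_ONLY, and in CSF3R_ONLY of 11.2 (1.63 to 484). Slfn1, a growth regulator of the Schlafen family, had 2.85 ± 0.261 CPM in RUNX1-ETO_FIRST, 7.08 ± 0.869 in CSF3R_FIRST, 0.517 ± 0.293 in RUNX1-ETO_ONLY and 13.8 ± 1.76 in CSF3R_ONLY, against 0.115 ± 0.0623 in EMPTY, and was lower in RUNX1-ETO_FIRST than in CSF3R_FIRST (log2 -1.31 ± 0.21, adjusted p = 0.000406).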

How the data were processed

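Column-purified, DNase-treated RNA of 15 libraries was made into strand-specific mRNA libraries for a BGI DNBSEQ instrument, per the labels' protocols. The deposited file holds unnormalised read counts by gene symbol and library. Trimmomatic, STAR, DESeq2 and the mm10 build are named in the submitters' processing notes with no version or role. How reads were counted, with which annotation and strand setting, was not given in the sources used here, so counts of paralogs and overlapping genes are uncertain.

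The entry naming no gene (0.0179% to 0.0305% of counts) was left out. In R 4.3.3, genes with 10 or more counts in at least 3 libraries were fitted in edgeR 4.0.16 (TMM, robust quasi-likelihood, 5 group means, 15 libraries, 10 residual degrees of freedom). P-values were adjusted by Benjamini-Hochberg over all 13199 genes in each of 7 comparisons and 2 tests of additivity, and the fit was tested on simulated counts. Alternatives were other filters and scalings, limma 3.58.1 voom, DESeq2 1.42.0, a fit of only the groups compared, a replicate block and fewer libraries. Same-numbered replicates of different groups deviated together, with a correlation over 0.1, in 9 of 30 pairs. All 3 pairs did so for RUNX1-ETO_ONLY with EMPTY (0.28, 0.27 and 0.45) and for CSF3R_FIRST with EMPTY (0.16, 0.14 and 0.36) but for none of the other 8 pairs of groups, so the numbers were not taken to pair libraries over the fit, and the block is given as an alternative. Members under 1 CPM rest on few counts, and intervals cover counting error only. Oas2, Rtp4 and Usp18 reached the count of the filter in 2 groups each, and Oasl1, Xaf1 and Isg15 in 3 each. The numbers of calls therefore include members tested because those groups were high. Positions are from GENCODE M21 and promoters from RefSeq.

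The members, the pathway and marker lists and the tests were chosen with earlier results of these data known. Values in each library are given for members called between the orders and for the 4 largest called rises and falls in each other comparison among members with mean log2 CPM of at least 1. The pathway genes named are the ligands, receptors, kinases and STATs and the 3 largest changes of each other role, of which 2 are not reported here.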

Additional observations from a re-analysis of the deposited data

Results flagged for a closer look

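The results below are members for which 1 allele acted differently on cells that already carried the other than on EMPTY, by a test of that difference in edgeR's quasi-likelihood fit over all genes. Each value is a log2 effect, with the effect on top of the first allele before the effect on EMPTY, and ± is the standard error of the difference.

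CSF3R-T618I acted differently when added to RUNX1-ETO than when added to EMPTY for 12 members. Its effect was higher on RUNX1-ETO for 7 of them. For Dhx58 it was 0.95 on RUNX1-ETO and 0.10 on EMPTY, a difference of 0.85 ± 0.19 (adjusted p = 0.00637). For Oasl1 it was 0.64 on RUNX1-ETO and -1.67 on EMPTY, a difference of 2.31 ± 0.70 (adjusted p = 0.0349). For Bst2 it was 0.43 on RUNX1-ETO and -0.32 on EMPTY, a difference of 0.74 ± 0.18 (adjusted p = 0.0112). For Gbp3 it was 1.27 on RUNX1-ETO and -0.62 on EMPTY, a difference of 1.88 ± 0.37 (adjusted p = 0.00226). For Tap1 it was 0.37 on RUNX1-ETO and -1.05 on EMPTY, a difference of 1.42 ± 0.09 (adjusted p = 3.62e-08). For Psmb8 it was 0.062 on RUNX1-ETO and -0.62 on EMPTY, a difference of 0.69 ± 0.18 (adjusted p = 0.01602). For Psmb9 it was -0.015 on RUNX1-ETO and -0.67 on EMPTY, a difference of 0.65 ± 0.16 (adjusted p = 0.0122). The effect was lower on RUNX1-ETO for the other 5. For Irf9 it was 0.079 on RUNX1-ETO and 0.68 on EMPTY, a difference of -0.60 ± 0.12 (adjusted p = 0.00231). For Irf7 it was 0.44 on RUNX1-ETO and 1.49 on EMPTY, a difference of -1.05 ± 0.24 (adjusted p = 0.00683). For Ifit2 it was -1.31 on RUNX1-ETO and 0.26 on EMPTY, a difference of -1.57 ± 0.48 (adjusted p = 0.0373). For Parp9 it was 0.40 on RUNX1-ETO and 0.77 on EMPTY, a difference of -0.37 ± 0.12 (adjusted p = 0.0482). For Parp14 it was 0.15 on RUNX1-ETO and 1.39 on EMPTY, a difference of -1.24 ± 0.20 (adjusted p = 0.000527).

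RUNX1-ETO acted differently when added to CSF3R-T618I than when added to EMPTY for 13 members. Its effect was higher on CSF3R-T618I for 6 of them. For Dhx58 it was -0.19 on CSF3R-T618I and -1.08 on EMPTY, a difference of 0.89 ± 0.19 (adjusted p = 0.00365). For Bst2 it was 1.41 on CSF3R-T618I and 0.39 on EMPTY, a difference of 1.02 ± 0.18 (adjusted p = 0.000786). For Gbp3 it was 0.73 on CSF3R-T618I and -0.40 on EMPTY, a difference of 1.13 ± 0.38 (adjusted p = 0.0444). For Tap1 it was 0.22 on CSF3R-T618I and -0.93 on EMPTY, a difference of 1.15 ± 0.09 (adjusted p = 3.18e-07). For Psmb8 it was 0.091 on CSF3R-T618I and -0.63 on EMPTY, a difference of 0.72 ± 0.18 (adjusted p = 0.00879). For Psmb9 it was -0.52 on CSF3R-T618I and -1.01 on EMPTY, a difference of 0.49 ± 0.17 (adjusted p = 0.04401). The effect was lower on CSF3R-T618I for the other 7. For Irf1 it was -0.78 on CSF3R-T618I and -0.035 on EMPTY, a difference of -0.75 ± 0.13 (adjusted p = 0.000467). For Oas3 it was -2.72 on CSF3R-T618I and -0.47 on EMPTY, a difference of -2.25 ± 0.40 (adjusted p = 0.000713). For Oasl2 it was -0.97 on CSF3R-T618I and 1.86 on EMPTY, a difference of -2.83 ± 0.62 (adjusted p = 0.003598). For Ifit2 it was -2.81 on CSF3R-T618I and -0.70 on EMPTY, a difference of -2.11 ± 0.51 (adjusted p = 0.00661). For Parp14 it was 0.42 on CSF3R-T618I and 1.61 on EMPTY, a difference of -1.19 ± 0.20 (adjusted p = 0.000521). For Gbp2 it was -0.51 on CSF3R-T618I and 2.50 on EMPTY, a difference of -3.01 ± 0.35 (adjusted p = 1.74e-05). For Irgm1 it was 0.16 on CSF3R-T618I and 0.75 on EMPTY, a difference of -0.58 ± 0.13 (adjusted p = 0.00371).

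Some of these differences were lost when 1 library was left out. With CSF3R-T618I added, that was so for Oasl1 without RUNX1-ETO_FIRST replicates 1 or 3, RUNX1-ETO_ONLY replicates 1 or 2, CSF3R_ONLY replicates 1 or 2 or EMPTY replicate 3 (adjusted p up to 0.199), for Parp9 without RUNX1-ETO_FIRST replicates 1, 2 or 3, CSF3R_FIRST replicates 1, 2 or 3, RUNX1-ETO_ONLY replicates 1 or 2, CSF3R_ONLY replicates 1, 2 or 3 or EMPTY replicates 2 or 3 (adjusted p up to 0.121) and for Ifit2 without RUNX1-ETO_FIRST replicates 1 or 2, CSF3R_FIRST replicates 1 or 2, RUNX1-ETO_ONLY replicates 1 or 2 or CSF3R_ONLY replicates 1 or 2 (adjusted p up to 0.111). With RUNX1-ETO added, it was so for Gbp3 without RUNX1-ETO_FIRST replicate 2, CSF3R_FIRST replicates 1 or 2, RUNX1-ETO_ONLY replicates 1 or 2, CSF3R_ONLY replicates 2 or 3 or EMPTY replicate 1 (adjusted p up to 0.1098) and for Psmb9 without RUNX1-ETO_FIRST replicate 2, CSF3R_FIRST replicate 3, RUNX1-ETO_ONLY replicates 1 or 2 or CSF3R_ONLY replicates 1, 2 or 3 (adjusted p up to 0.103). Leaving out all 4 libraries low in long transcripts also ended the Oasl1 difference (adjusted p = 0.244).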

How the results depend on the processing

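Under 24 alternatives (9 settings and 15 omissions of 1 library) no call of a member reversed, and for 324 member results (36 members, 9 tests) 7345 values stayed on their side of the threshold, 278 lost it and 103 gained it. A member with no test under an alternative, such as Iigp1 or Usp18 below the filter, gave no value there and was not counted as lost. Leaving out 1 library at a time gave 10 to 18 called members in RUNX1-ETO_FIRST against CSF3R_FIRST, where all libraries gave 14. Against EMPTY the calls were 23 to 27 (all libraries 27) in RUNX1-ETO_FIRST, 18 to 24 (all libraries 23) in CSF3R_FIRST, 17 to 22 (all libraries 21) in RUNX1-ETO_ONLY and 16 to 21 (all libraries 21) in CSF3R_ONLY. Genes called among all tested moved by over 1.5 times only without the 4 libraries low in long transcripts, to 4391 in place of 2407 between the orders (omissions of 1 library, 1716 to 3481) and to 3446 in place of 2076 in the additivity test of RUNX1-ETO_FIRST (1634 to 2332); the cause was not tested. With library sizes in place of TMM the risen share of all calls moved by over 10 points in 5 comparisons: 61.9% against 39.4% between the orders, 49.1% against 60.4% in CSF3R_ONLY and 37.9% against 50.2% in CSF3R_FIRST against EMPTY, 38.3% against 60.7% in RUNX1-ETO_FIRST against RUNX1-ETO_ONLY, and 26.9% against 45.4% in the additivity test of CSF3R_FIRST. The median of all genes then shifted to 0.10, -0.059, -0.19, -0.14 and -0.20, and members risen and fallen were 14 and 1, 14 and 6, 12 and 9, 15 and 1, and 4 and 12. With the replicate block 13 members were called between the orders and 12 and 13 in the additivity tests, and no count of calls moved by over 1.5 times. The block ended the calls of Gbp3 and Xaf1 between the orders (adjusted p = 0.0569 and 0.0547), of Oasl2 and Irf7 in RUNX1-ETO_FIRST against RUNX1-ETO_ONLY (0.054 and 0.0547), of Gbp3 and Isg15 in CSF3R_FIRST against CSF3R_ONLY (0.0571 and 0.0576), of Oasl1 in CSF3R_ONLY and Rtp4 in RUNX1-ETO_FIRST against EMPTY (0.0524 and 0.0509) and of Gbp3 in the additivity test of CSF3R_FIRST (0.0596), and it added calls of Igtp between the orders and of Eif2ak2 in that additivity test. It ended no member call in RUNX1-ETO_ONLY or CSF3R_FIRST against EMPTY. A fit of only the groups compared kept 14 of 14 member calls between the orders. Against EMPTY it kept 25 of 27 in RUNX1-ETO_FIRST, losing Usp18 and Rtp4. In CSF3R_FIRST it kept 18 of 23, losing Oasl1, Irf1, Igtp, Trim25 and Rsad2. In RUNX1-ETO_ONLY it kept 15 of 21, losing Oasl1, Oas2, Isg20, Bst2, Xaf1 and Rtp4. In CSF3R_ONLY it kept 16 of 21, losing Oasl1, Isg20, Stat2, Irgm1 and Eif2ak2, and gained Oas1a. Without the 4 libraries low in long transcripts, further members were called against EMPTY: Trim25 in RUNX1-ETO_FIRST, Isg20 and Ifi35 in CSF3R_FIRST, Trim25 and Ifit2 in RUNX1-ETO_ONLY, and Oas1a, Igtp and Rsad2 in CSF3R_ONLY. Iigp1 had no test without any 1 of the RUNX1-ETO_FIRST libraries. Depth limits members under 1 CPM, and no interferon gene was detectable.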
